A study of Homo sapiens with 9 samples.

Results

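The collagen family was examined in 3 sublines of SUIT-2, a human pancreatic ductal adenocarcinoma (PDAC) cell line. The members were all genes of the count table whose symbol reads COL, a number, A and a number, which gave 44 of 42717 genes. The 9 RNA-seq libraries comprised 3 of S2-007, 3 of S2-028 and 3 of S2-020, numbered n1 to n3. The labels give no treatment and no introduced gene for any line. The study described maspin, a serine protease inhibitor family protein, in both nucleus and cytoplasm of S2-007 (panMaspin), mainly in the cytoplasm of S2-028 (cytMaspin) and only weakly in S2-020. Each group was 1 established line, so a difference between groups is a difference between lines and cannot be told apart from anything else in which they differ. No label says that the libraries of a line came from separate cultures, so the p-values measure the spread between these libraries, which may be technical.

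Collagens are secreted or membrane-bound proteins in which 3 chains wind into a triple helix. Fibril-forming collagens build the tensile fibres of stroma, and type IV chains build the sheet of basement membranes. Type VI chains form beaded filaments, and some transmembrane collagens, such as COL17A1, hold epithelial cells to their matrix. PDAC is known for a collagen-rich stroma that is made mostly by fibroblasts. The libraries here came from cultured carcinoma cells without stroma.

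Library totals lay between 60328748 and 86253923 counts. Levels are given as CPM, counts scaled to library size after trimmed mean of M-values (TMM) normalisation. Where a value is given per kb, CPM are divided by the length of the exons in kb to compare genes with one another. Shares and sums of the family and the ratio of COL18A1 to COL17A1 use CPM or counts without this division. The epithelial markers EPCAM, CDH1, KRT8, KRT18 and KRT19 summed to 9318 to 9813 CPM in S2-007, 4266 to 5382 in S2-020 and 14374 to 16868 in S2-028, and all 5 were detected in every line. S2-020 stood apart within this list, with KRT19 at 103 CPM against 2123 in S2-007 and 1933 in S2-028, and CDH1 at 4.54 against 54.2 and 112. The 8 fibroblast markers summed to only 6.10 to 7.16, 7.81 to 8.16 and 4.45 to 5.36 CPM in S2-007, in S2-020 and in S2-028. DCN, LUM, PDGFRA, PDGFRB, FAP and POSTN each had a mean under 1 CPM in all lines. In the same order of lines, ACTA2 averaged 3.46, 5.26 and 2.56 CPM, and THY1 1.28, 1.23 and 1.27. The 4 endothelial markers summed to between 5.56 and 9.95 CPM, nearly all PECAM1. The 4 leukocyte markers reached 39.8 to 44.5 CPM in S2-007 and 9.17 to 12.5 in the other lines, of which CD68 made most, while PTPRC stayed at or below 0.301 CPM on average and CD3E had no count in S2-007. In bulk RNA, fewer cells that express a gene and less RNA per cell cannot be told apart.

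The whole family took a similar small share of the RNA in the 3 lines, but the balance between COL17A1 and COL18A1, its main members, differed. Collagen genes held 0.111 to 0.112% of all counts in S2-007, 0.103% in S2-020 and 0.0936 to 0.101% in S2-028, and their summed level was 1097 ± 43.6, 1071 ± 11.7 and 946 ± 20.5 CPM (SD, n = 3). COL17A1 and COL18A1 together made 90.5 ± 0.807% of that sum in S2-007, 73.4 ± 1.84% in S2-020 and 82.6 ± 1.31% in S2-028. COL17A1 alone took 82.8 to 84.4% of collagen counts in S2-007, while COL18A1 took 63.7 to 66.8% in S2-020 and 55.0 to 55.7% in S2-028. Without these genes, the other 42 members summed to 104 ± 6.37 CPM in S2-007, 285 ± 16.7 in S2-020 and 165 ± 14.6 in S2-028. The bulk of the family was weakly expressed: 22 of 44 members had a mean below 1 CPM in every line, and a mean of at least 10 CPM was reached by 4 members in S2-007, 10 in S2-020 and 6 in S2-028.

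**Figure D1:**
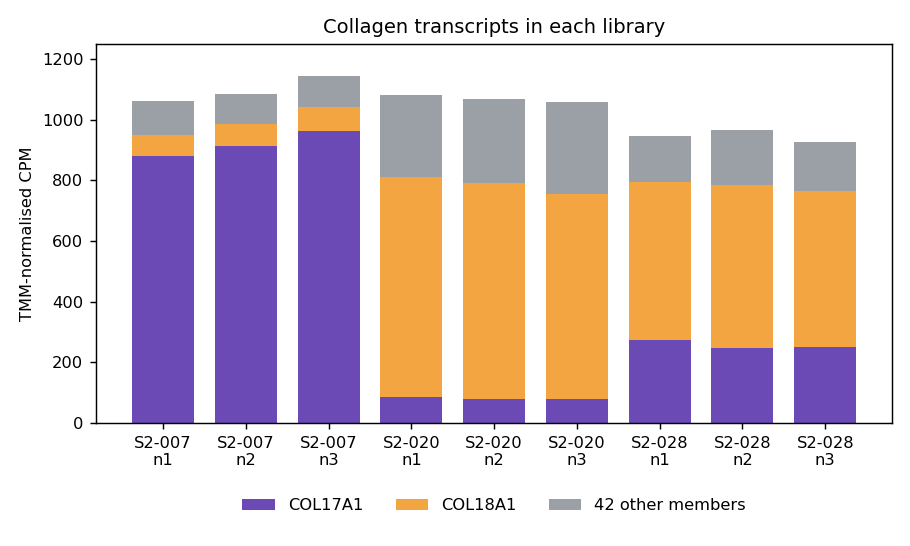
TMM-normalised CPM of COL17A1, COL18A1 and the other 42 collagen genes, stacked for each of the 9 libraries (n1 to n3 of each line). COL17A1 fills most of the bar in S2-007 and COL18A1 most of it in S2-020 and S2-028, with mean totals of 1097, 1071 and 946 CPM.

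A gene was called when it differed at least 1.5-fold and the quasi-likelihood test of edgeR gave it a Benjamini-Hochberg adjusted p, over all genes, below 0.05. Each standard error (SE) is the size of the log2 fold change divided by the square root of the F statistic of that test. COL1A2, COL23A1 and COL26A1 had too few counts to be tested between S2-028 and S2-007 or between S2-020 and S2-007, and COL1A2, COL3A1, COL21A1 and COL23A1 between S2-028 and S2-020. Between S2-028 and S2-007, 14 of 41 tested members were higher in S2-028 (34.1%, against 10.2% of all genes tested) and 5 were lower (12.2%, against 8.19%). Between S2-020 and S2-007, 10 of 41 were higher in S2-020 (24.4%, against 9.57%) and 6 were lower (14.6%, against 12.1%), and this last count was 3 without S2-020 n2. Between S2-028 and S2-020, 6 of 40 were higher in S2-028 (15%, against 12.1%) and 7 were lower (17.5%, against 10.1%). The median size of the log2 fold change, regardless of sign, was 0.94, 0.91 and 0.59 for the tested members in these comparisons and 0.35, 0.39 and 0.39 for all genes tested. The share of members whose libraries did not overlap between lines was 21 of 41, 21 of 41 and 22 of 40, against 43.3%, 48.5% and 48.9% of all genes tested. Of the 39 members tested in all comparisons, 23 (59.0%) were called in at least 1, against 35.1% of the 24986 genes tested in all. Since a gene enters the test when 1 of the lines reaches the minimum count, these counts describe the tested members only, and the 3 comparisons share libraries with one another.

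**Figure D2:**
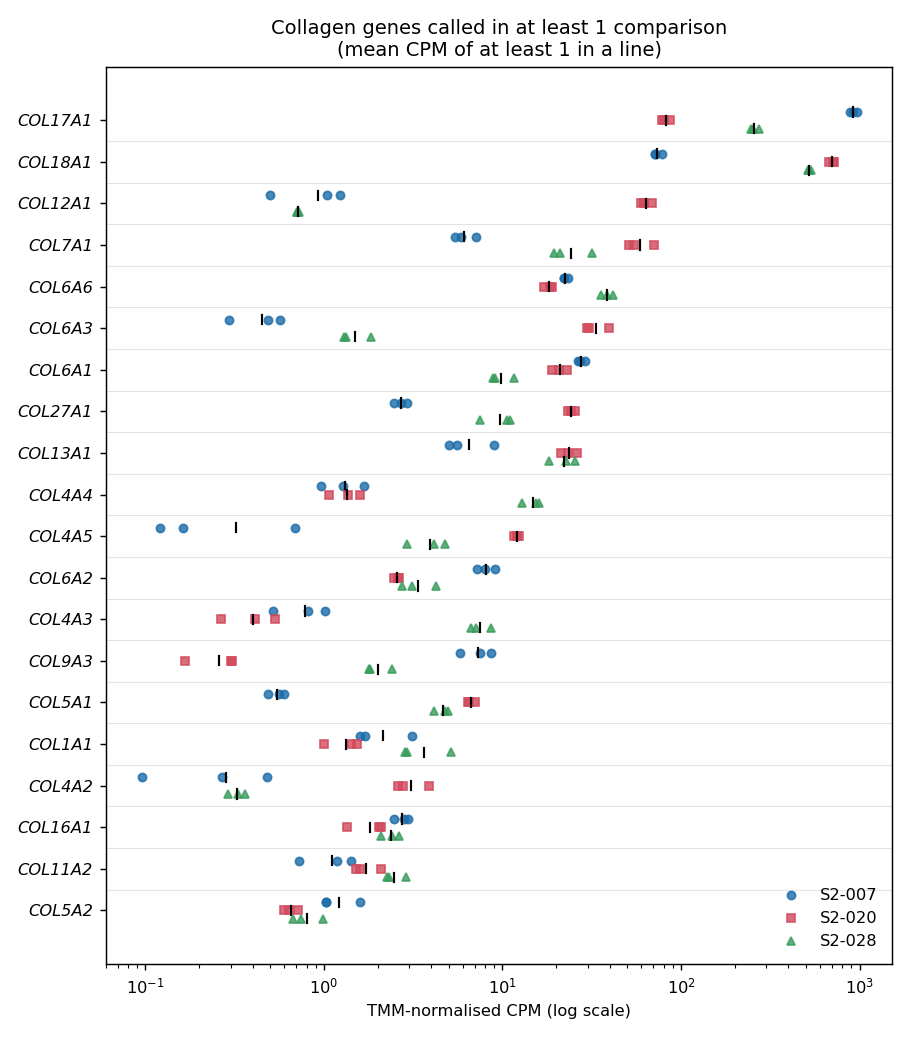
TMM-normalised CPM (log scale) of the 20 collagen genes that were called in at least 1 comparison and had a mean of at least 1 CPM in a line, ordered by their highest mean. Each symbol is 1 library and each vertical bar the mean of 3 libraries, with COL12A1 and COL6A3 below 2 CPM in S2-007 and S2-028 and above 29 CPM in S2-020.

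**Figure D3:**
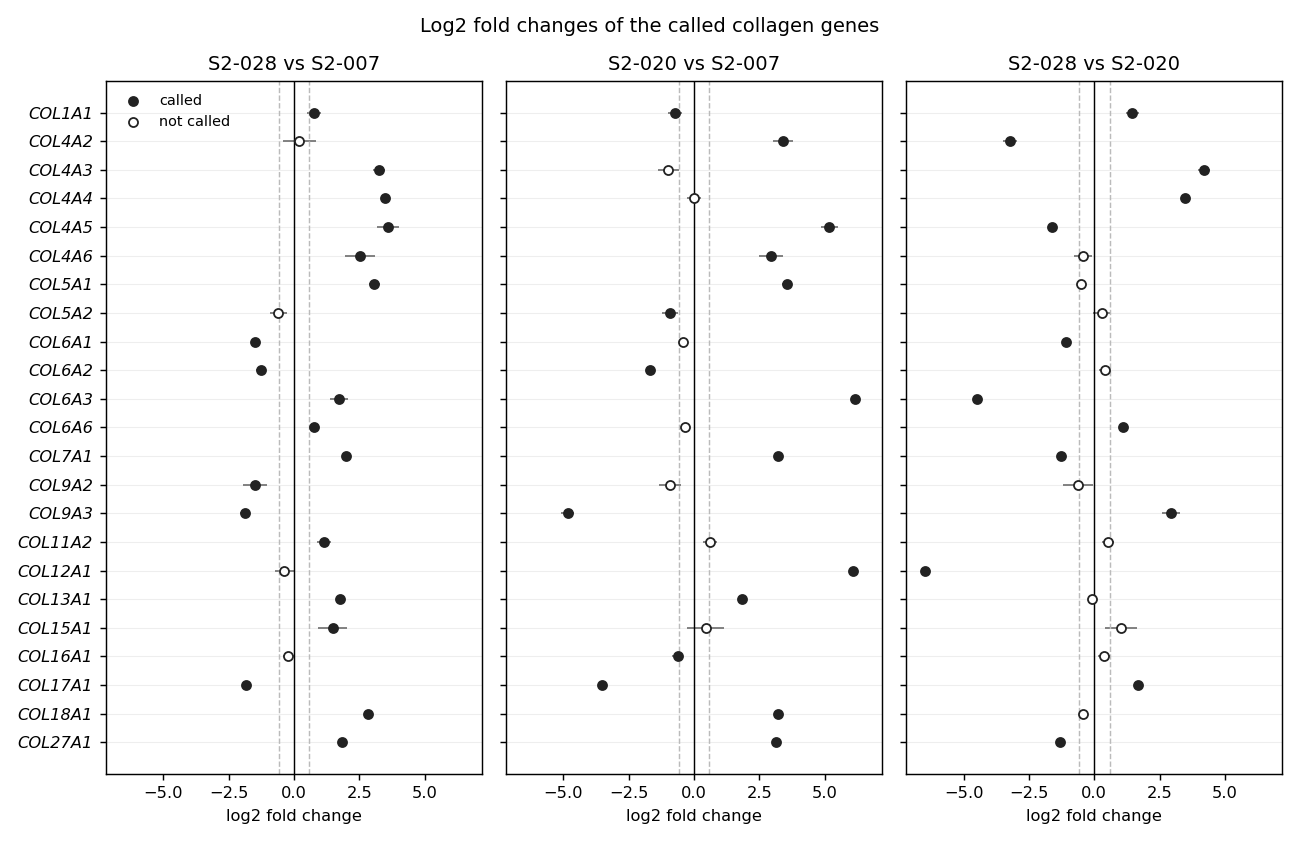
Log2 fold changes of the 23 collagen genes called in at least 1 comparison, with the SE derived from the F statistic as bars. Filled symbols are called and open symbols uncalled values, and dashed lines mark the threshold of 1.5-fold. The extremes are COL6A3 at 6.17 and COL9A3 at -4.84 for S2-020 vs S2-007, and COL12A1 at -6.48 for S2-028 vs S2-020.

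Of the epithelial cell-surface and basement membrane collagens, COL17A1 and COL18A1 were ordered in opposite directions across the lines. COL17A1 encodes the transmembrane collagen of hemidesmosomes, the junctions that anchor basal epithelial cells to the basement membrane. COL17A1 (NCBI gene 1308, chromosome 10 from 104031286 to 104085880, minus strand, GRCh38.p14) was at 879.6, 915 and 964 CPM in S2-007, 86.9, 78.5 and 80.4 in S2-020 and 274, 248 and 252 in S2-028. No library of any line overlapped with those of another, and S2-007 was highest and S2-020 lowest. COL17A1 was 3.56-fold lower in S2-028 than in S2-007 (log2 fold change -1.83, SE 0.0596, adjusted p = 7.16e-16) and 11.5-fold lower in S2-020 than in S2-007 (-3.52, SE 0.0564, adjusted p = 7.28e-20). Its level in S2-028 was 3.15-fold that in S2-020 (1.66, SE 0.0585, adjusted p = 1.82e-14). By mean CPM, COL17A1 ranked 85 among all genes in S2-007, 667 in S2-028 and 3050 in S2-020.

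COL18A1 encodes a basement membrane collagen that carries heparan sulfate chains and whose C-terminal fragment is endostatin. COL18A1 (NCBI gene 80781, chromosome 21 from 45405165 to 45513720, plus strand) was at 71.3, 71.2 and 78.0 CPM in S2-007, 724, 712 and 675 in S2-020 and 520.1, 538 and 512 in S2-028. S2-007 lay far below the other lines, and S2-020 lay above S2-028 without overlap. COL18A1 was 7.13-fold higher in S2-028 than in S2-007 (log2 fold change 2.83, SE 0.0607, adjusted p = 1.20e-18) and 9.37-fold higher in S2-020 than in S2-007 (3.23, SE 0.0548, adjusted p = 1.40e-19). Between S2-028 and S2-020, the difference passed the adjusted p but was under the fold threshold (-0.43, SE 0.0461, adjusted p = 2.64e-07). In S2-007 the ratio of COL18A1 to COL17A1 CPM was 0.0800, against 8.60 in S2-020 and 2.03 in S2-028. Per kb of exon, COL17A1 stood first and COL18A1 second among collagens in S2-007, with 132 and 8.69 CPM per kb, whereas COL18A1 stood first and COL17A1 second in S2-020 (83.1 and 11.7) and S2-028 (61.8 and 36.9). Genes on the opposite strand, among them SLC19A1, a folate transporter, cover 18.5% of the exon bases of COL18A1. Whether counting used the strand is not given in the sources used here. SLC19A1 was at 54.6, 61.7 and 74.7 CPM in S2-007, 131, 135 and 127 in S2-020 and 98.4, 92.1 and 105 in S2-028, with log2 fold changes of 0.64 for S2-028 vs S2-007 and 1.01 for S2-020 vs S2-007, and its part in the counts of COL18A1 was not tested.

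The starts of these genes are shown because the gene pair changes places across the lines, and because COL18A1 has more than 1 start. Of the 44 members, 32 had a promoter window in RefSeq (GRCh38.p14), and the 250 bases before the start are printed 5′ to 3′ on the gene's strand. COL17A1 lies at chr10:104085881-104086130 on the minus strand, and COL18A1 at chr21:45404915-45405164 for its outer start and chr21:45455272-45455521 for its inner start, both on the plus strand. The starts of COL18A1 are 50357 bases apart. Capitals mark matches, on either strand, to the TATA box TATAAA, the CCAAT box CCAAT and the GC box GGGCGG.
COL17A1: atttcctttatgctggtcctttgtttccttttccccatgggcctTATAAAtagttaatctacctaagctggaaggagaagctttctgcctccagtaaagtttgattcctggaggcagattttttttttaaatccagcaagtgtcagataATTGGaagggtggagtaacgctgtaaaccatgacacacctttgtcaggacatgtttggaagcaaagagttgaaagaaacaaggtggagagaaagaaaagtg
COL18A1 outer start: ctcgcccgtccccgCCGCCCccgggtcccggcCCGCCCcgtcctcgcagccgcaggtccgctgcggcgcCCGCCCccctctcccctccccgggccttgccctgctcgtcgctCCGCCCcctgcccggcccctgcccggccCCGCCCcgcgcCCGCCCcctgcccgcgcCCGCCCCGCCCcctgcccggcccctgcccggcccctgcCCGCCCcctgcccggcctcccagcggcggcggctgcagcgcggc
COL18A1 inner start: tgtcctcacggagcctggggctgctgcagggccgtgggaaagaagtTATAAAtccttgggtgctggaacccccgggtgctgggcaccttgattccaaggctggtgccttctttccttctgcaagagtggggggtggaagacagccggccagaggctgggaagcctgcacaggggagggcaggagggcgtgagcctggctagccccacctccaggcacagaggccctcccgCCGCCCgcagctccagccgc
The window of COL17A1 had a GC content of 40.4%, against a median of 58.0% over all 34943 windows, and held 1 TATA box, 1 CCAAT box and no GC box. The outer window of COL18A1 had a GC content of 88.4% and 9 GC boxes, and the inner window 66.4%, with 1 TATA box and 1 GC box. Over all windows of this length, 10.8% held a TATA box, 32.0% a CCAAT box and 42.5% a GC box. TGANTCA, the binding motif of AP-1, and CACCTG, an E-box, were searched on both strands and had no match in these windows, against 6.59% and 17.5% of all windows. These matches describe letters in a window and not sites of binding, and the counts per gene do not tell which start of COL18A1 was used.

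COL4A1 to COL4A6 encode the chains of type IV collagen, which assemble as COL4A1 with COL4A2, as COL4A3 with COL4A4 and COL4A5, or as COL4A5 with COL4A6. The genes lie head to head in pairs that share the stretch between their starts. Of the 6 chains, 4 were higher (66.7%, against 10.2% of all genes tested) and none was lower (against 8.19%) in S2-028 than in S2-007. In S2-020, 3 were higher (50%, against 9.57%) and none was lower (against 12.1%) than in S2-007, and in S2-028, 2 were higher (33.3%, against 12.1%) and 2 lower (33.3%, against 10.1%) than in S2-020. The pair of COL4A3 and COL4A4 was highest in S2-028. COL4A3 was at 0.815, 1.01 and 0.516 CPM in S2-007, 0.529, 0.409 and 0.265 in S2-020 and 8.59, 6.65 and 7.12 in S2-028. COL4A4 was at 1.68, 0.967 and 1.28 CPM in S2-007, 1.36, 1.07 and 1.59 in S2-020 and 12.9, 16.1 and 15.5 in S2-028. For both genes, all 3 libraries of S2-028 lay above all libraries of the other lines. COL4A3 was 9.55-fold higher in S2-028 than in S2-007 (log2 fold change 3.25, SE 0.229, adjusted p = 2.14e-10) and 18.5-fold higher than in S2-020 (4.21, SE 0.235, adjusted p = 1.85e-11). COL4A4 was 11.3-fold higher in S2-028 than in S2-007 (3.50, SE 0.179, adjusted p = 1.24e-12) and 11.1-fold higher than in S2-020 (3.47, SE 0.163, adjusted p = 1.30e-12). Between S2-020 and S2-007 neither was called, with -0.99, SE 0.408, adjusted p = 0.0618 for COL4A3 and 0.00, SE 0.278, for COL4A4. The call for COL4A3 depended on the settings, and its adjusted p was 0.0325 without S2-007 n3 and 0.0448 without S2-020 n1.

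COL4A5, the chain that joins either of the less common type IV trimers, was highest in S2-020. COL4A5 was at 0.120, 0.685 and 0.163 CPM in S2-007, 11.6, 12.1 and 12.4 in S2-020 and 4.14, 4.79 and 2.92 in S2-028. The lines did not overlap, and S2-007 was lowest, although its n2 library was several times its n1 and n3. COL4A5 was higher than in S2-007 in S2-020 (log2 fold change 5.18, SE 0.320, adjusted p = 5.30e-11) and in S2-028 (3.61, SE 0.415, adjusted p = 4.08e-07), and lower in S2-028 than in S2-020 (-1.60, SE 0.156, adjusted p = 6.17e-08). Without S2-007 n2, the log2 fold changes against S2-007 were 6.38 for S2-020 and 4.80 for S2-028. Its neighbour COL4A6 stayed under 1 CPM in every library, with 0.0802, 0.148 and 0.109 CPM in S2-007, 0.863, 0.913 and 0.878 in S2-020 and 0.483, 0.783 and 0.705 in S2-028, and was called higher than in S2-007 in S2-020 (2.93, SE 0.456, adjusted p = 2.34e-05) and S2-028 (2.53, SE 0.565, adjusted p = 0.00112). Per kb of exon, the ratio of COL4A5 to COL4A6 was 1.17 to 3.63 in S2-007, 10.3 to 11.1 in S2-020 and 3.24 to 6.70 in S2-028.

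COL4A1 and COL4A2, the most widespread chains of basement membranes, stayed under 1 CPM in S2-007 and S2-028. COL4A2 was at 0.481, 0.269 and 0.0950 CPM in S2-007, 2.76, 2.58 and 3.87 in S2-020 and 0.290, 0.360 and 0.328 in S2-028, and only the S2-020 libraries exceeded 0.5 CPM. COL4A2 was 10.6-fold higher in S2-020 than in S2-007 (log2 fold change 3.40, SE 0.371, adjusted p = 2.43e-07, and 4.05 without S2-007 n1) and lower in S2-028 than in S2-020 (-3.23, SE 0.282, adjusted p = 1.37e-08). COL4A1 was at 0.254, 0.309 and 0.136 CPM in S2-007, 0.3897, 0.313 and 0.836 in S2-020 and 0.677, 0.470 and 0.197 in S2-028. Its libraries overlapped in all comparisons but that of S2-020 with S2-007, and none of its differences was called. For S2-020 vs S2-007 the log2 fold change of COL4A1 was 1.09, SE 0.547, adjusted p = 0.128, at mean counts of only 38 and 17.3. The ratio of COL4A2 to COL4A1 per kb of exon was 3.53 to 6.29 in S2-020 and at most 1.44 in S2-007 and 1.27 in S2-028.

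The sequences between the starts of these pairs are shown because the genes of a pair start from opposite ends of 1 short stretch. The stretch between COL4A1 and COL4A2 is 126 bases (chr13:110307158-110307283), that between COL4A4 and COL4A3 135 bases (chr2:227164489-227164623), and that between COL4A6 and COL4A5 379 bases, of which the 250 next to COL4A5 are printed (chrX:108439588-108439837). All are RefSeq sequence of GRCh38.p14 on the plus strand, with capitals as above.
COL4A1 and COL4A2: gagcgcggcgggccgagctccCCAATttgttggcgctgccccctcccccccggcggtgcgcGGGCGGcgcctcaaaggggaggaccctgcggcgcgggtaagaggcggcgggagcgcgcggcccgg
COL4A4 and COL4A3: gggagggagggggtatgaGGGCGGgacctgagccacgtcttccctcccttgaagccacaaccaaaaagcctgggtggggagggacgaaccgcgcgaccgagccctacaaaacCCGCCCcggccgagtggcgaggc
COL4A5: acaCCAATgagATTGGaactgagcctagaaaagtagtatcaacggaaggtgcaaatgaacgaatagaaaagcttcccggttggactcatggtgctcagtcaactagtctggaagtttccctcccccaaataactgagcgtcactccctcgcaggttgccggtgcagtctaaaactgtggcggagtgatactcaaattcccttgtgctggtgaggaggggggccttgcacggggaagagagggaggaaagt
The stretch of COL4A1 and COL4A2 held 1 CCAAT box and 1 GC box with a GC content of 80.2%, that of COL4A4 and COL4A3 held 2 GC boxes with 68.1%, and the window of COL4A5 held 2 CCAAT boxes with 51.2%. In windows of 126 bases, 21.1% of all promoters held a CCAAT box and 34.5% a GC box, and in windows of 135 bases 22.1% and 35.5%. None of the 3 held a TATA box, an AP-1 motif or the E-box. COL4A3 and COL4A4 were both highest in S2-028, whereas of COL4A1 and COL4A2 only COL4A2 was called higher in S2-020. The difference between the fold changes of paired genes was not tested.

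**Figure D4:**
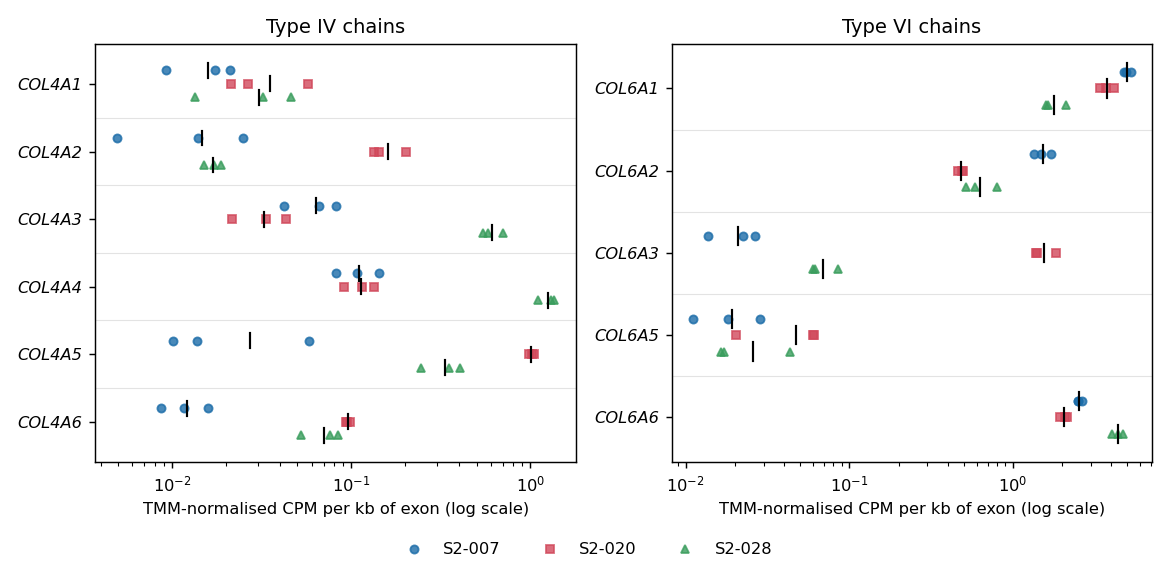
TMM-normalised CPM per kb of exon (log scale) of the type IV chains (left) and type VI chains (right), with 1 symbol per library and a vertical bar at the mean of each line. COL4A3 and COL4A4 stand to the right in S2-028, COL4A2 and COL4A5 in S2-020, and COL6A3 in S2-020, where its level comes closest to that of COL6A1.

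Type VI collagen is built from COL6A1, COL6A2 and a further chain, usually COL6A3, for which COL6A5 or COL6A6 can stand in. The 3 standard chains were not ordered alike across the lines. COL6A3 (NCBI gene 1293, chromosome 2 from 237324018 to 237414164, minus strand) was at 0.294, 0.484 and 0.570 CPM in S2-007, 30.4, 29.8 and 39.5 in S2-020 and 1.29, 1.33 and 1.84 in S2-028. All S2-020 libraries lay above 29 CPM, and no S2-007 library reached 1 CPM. COL6A3 was 72.2-fold higher in S2-020 than in S2-007 (log2 fold change 6.17, SE 0.172, adjusted p = 2.23e-16), 3.31-fold higher in S2-028 than in S2-007 (1.73, SE 0.341, adjusted p = 0.000345) and 22.4-fold lower in S2-028 than in S2-020 (-4.48, SE 0.151, adjusted p = 9.15e-15).

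COL6A1 and COL6A2, which lie close to each other on chromosome 21, were highest in S2-007. COL6A1 was at 27.1, 26.4 and 29.0 CPM in S2-007, 18.9, 23.1 and 20.6 in S2-020 and 8.88, 11.6 and 9.08 in S2-028, without overlap between lines. Its log2 fold change was -1.48, SE 0.107, adjusted p = 3.40e-10 for S2-028 vs S2-007 and -1.08, SE 0.117, adjusted p = 2.68e-07 for S2-028 vs S2-020, both called, and -0.43, SE 0.0832, adjusted p = 0.000288 for S2-020 vs S2-007, under the fold threshold. COL6A2 was at 9.11, 7.97 and 7.22 CPM in S2-007, 2.59, 2.45 and 2.63 in S2-020 and 4.25, 2.74 and 3.13 in S2-028. S2-007 lay above the other lines in each library, and COL6A2 was lower than in S2-007 in S2-028 (-1.26, SE 0.177, adjusted p = 6.28e-06) and S2-020 (-1.70, SE 0.151, adjusted p = 1.40e-08), with no call between S2-028 and S2-020 (0.40, SE 0.202, adjusted p = 0.133). Per kb of exon, COL6A1 exceeded COL6A3 by 198 to 358 times in S2-007, 19.2 to 33.9 times in S2-028 and 2.03 to 3.01 times in S2-020. Without division by length, COL6A3 lay above COL6A1 in S2-020, with means of 33.2 and 20.9 CPM.

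COL6A6 was highest in S2-028, the order of neither COL6A1 nor COL6A3. COL6A6 was at 22.1, 22.00 and 23.4 CPM in S2-007, 17.02, 18.3 and 19.0 in S2-020 and 35.6, 41.5 and 38.7 in S2-028. No library of S2-028 overlapped with the other lines, and the difference was 1.72-fold against S2-007 (log2 fold change 0.78, SE 0.0794, adjusted p = 6.50e-08) and 2.13-fold against S2-020 (1.09, SE 0.0830, adjusted p = 1.82e-09). Between S2-020 and S2-007 it was under the fold threshold (-0.34, SE 0.0807, adjusted p = 0.00165). Per length of exon, COL6A6 lay above COL6A3 in every line, at 2.55, 2.05 and 4.37 CPM per kb in S2-007, in S2-020 and in S2-028 against 0.0209, 1.54 and 0.0690 for COL6A3. Without division by length, COL6A3 lay above COL6A6 in S2-020, with means of 33.2 and 18.1 CPM. The exon length used was 21516 bases for COL6A3 and 8830 for COL6A6, so the order in S2-020 depends on that length. COL6A5 stayed under 1 CPM without a call.

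Among the collagens that decorate fibrils or tie basement membrane to stroma, COL12A1 and COL7A1 were highest in S2-020. COL12A1, a fibril-associated collagen of tendon and of tissue under tension, is encoded by NCBI gene 1303 on chromosome 6 (75084326 to 75206053, minus strand). COL12A1 was at 1.04, 0.497 and 1.22 CPM in S2-007, 62.2, 68.4 and 59.96 in S2-020 and 0.725, 0.705 and 0.705 in S2-028. The S2-020 libraries stood apart from all 6 others, which overlapped with one another. COL12A1 was 67.5-fold higher in S2-020 than in S2-007 (log2 fold change 6.08, SE 0.154, adjusted p = 5.25e-17) and 89.0-fold lower in S2-028 than in S2-020 (-6.48, SE 0.111, adjusted p = 5.22e-19), with no call between S2-028 and S2-007 (-0.37, SE 0.367, adjusted p = 0.524). COL7A1, which forms the anchoring fibrils beneath epithelial basement membranes (NCBI gene 1294, chromosome 3 from 48564073 to 48595329, minus strand), was at 7.11, 5.40 and 5.82 CPM in S2-007, 54.5, 51.1 and 70.2 in S2-020 and 19.5, 31.9 and 21.1 in S2-028. The 3 lines did not overlap and ran from S2-007 through S2-028 to S2-020. COL7A1 was 9.37-fold higher in S2-020 than in S2-007 (3.23, SE 0.119, adjusted p = 1.75e-14), 3.95-fold higher in S2-028 than in S2-007 (1.98, SE 0.155, adjusted p = 1.16e-09) and 2.42-fold lower in S2-028 than in S2-020 (-1.28, SE 0.142, adjusted p = 3.79e-07).

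COL9A3, a chain of the cartilage collagen type IX, was highest in S2-007. COL9A3 was at 8.66, 5.78 and 7.45 CPM in S2-007, 0.167, 0.300 and 0.307 in S2-020 and 2.40, 1.78 and 1.82 in S2-028, with no overlap between lines. COL9A3 was 28.6-fold lower in S2-020 than in S2-007 (log2 fold change -4.84, SE 0.249, adjusted p = 3.25e-12), lower in S2-028 than in S2-007 (-1.86, SE 0.195, adjusted p = 9.89e-08) and higher in S2-028 than in S2-020 (2.94, SE 0.333, adjusted p = 4.84e-07). The chains it assembles with were scarce: COL9A1 stayed under 0.4 CPM, and COL9A2 was at 0.548, 0.927 and 0.842 CPM in S2-007, 0.3897, 0.228 and 0.641 in S2-020 and 0.258, 0.344 and 0.213 in S2-028, called lower in S2-028 than in S2-007 (-1.49, SE 0.446, adjusted p = 0.0118). That call was lost without S2-007 n2 (adjusted p = 0.0751), and without S2-020 n3 COL9A2 was also called lower in S2-020 than in S2-007 (adjusted p = 0.0298). COL16A1, a fibril-associated collagen of skin and cartilage, was at 2.97, 2.47 and 2.80 CPM in S2-007, 2.03, 1.35 and 2.08 in S2-020 and 2.63, 2.10 and 2.39 in S2-028. It was called lower in S2-020 than in S2-007 (-0.63, SE 0.218, adjusted p = 0.0267), but not without S2-007 n1 (adjusted p = 0.0906), S2-007 n3 (0.0699) or S2-020 n2 (0.145).

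Among the fibril-forming collagens, the chains typical of stroma were weakly expressed. COL1A1, the main chain of type I collagen, was at 3.13, 1.69 and 1.59 CPM in S2-007, 1.00, 1.54 and 1.42 in S2-020 and 2.92, 5.12 and 2.85 in S2-028. COL1A1 was called higher in S2-028 than in S2-020 (log2 fold change 1.46, SE 0.258, adjusted p = 0.000108), with no overlap between the libraries of these lines. Its calls for S2-028 vs S2-007 (0.76, SE 0.272, adjusted p = 0.0351) and S2-020 vs S2-007 (-0.73, SE 0.280, adjusted p = 0.0458) were not kept in all alternatives. The first was lost without S2-007 n2 (adjusted p = 0.138), S2-007 n3 (0.156) or S2-028 n2 (0.283). The second was lost without S2-007 n1 (0.434), S2-020 n1 (0.181), S2-020 n2 (0.0541) or S2-020 n3 (0.0710), and also with all libraries kept, with DESeq2 (0.0557), in a fit of all 9 libraries (0.0623) and with the replicate block (0.0833). In tissue COL1A1 is joined by COL1A2 in the same fibre, but COL1A2 was at or below 0.168 CPM in all 9 libraries and could not be tested, and the ratio of COL1A1 to COL1A2 per kb of exon was at least 10.98 in each library. COL3A1, the other major stromal fibril collagen, stayed at or below 0.403 CPM.

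Of the other fibril-forming chains, COL5A1, COL5A2, COL27A1 and COL11A2 had a call, and COL2A1, COL3A1, COL5A3, COL11A1 and COL24A1 had none. COL5A1, the type V chain that sets fibril diameter, was at 0.561, 0.484 and 0.597 CPM in S2-007, 6.44, 6.97 and 6.51 in S2-020 and 4.16, 4.98 and 4.79 in S2-028. S2-007 lay below the other lines in every library, and COL5A1 was 8.47-fold higher in S2-028 (log2 fold change 3.08, SE 0.227, adjusted p = 4.55e-10) and 11.8-fold higher in S2-020 (3.57, SE 0.194, adjusted p = 7.33e-12) than in S2-007. Its partner COL5A2 was at 1.03, 1.58 and 1.03 CPM in S2-007, 0.640, 0.601 and 0.711 in S2-020 and 0.741, 0.673 and 0.984 in S2-028, and was called lower in S2-020 than in S2-007 (-0.93, SE 0.306, adjusted p = 0.0190), a call lost without S2-007 n2 (adjusted p = 0.157) or S2-020 n2 (0.0613). Per kb of exon, the ratio of COL5A1 to COL5A2 was 0.200 to 0.380 in S2-007, 6.01 to 7.61 in S2-020 and 3.19 to 4.85 in S2-028. COL27A1, a fibril collagen of developing cartilage, was at 2.70, 2.46 and 2.91 CPM in S2-007, 25.4, 24.2 and 23.2 in S2-020 and 10.7, 10.96 and 7.46 in S2-028. The lines did not overlap, and COL27A1 was 8.84-fold higher in S2-020 than in S2-007 (3.14, SE 0.108, adjusted p = 5.57e-15), 3.61-fold higher in S2-028 than in S2-007 (1.85, SE 0.169, adjusted p = 1.23e-08) and 2.50-fold lower in S2-028 than in S2-020 (-1.32, SE 0.122, adjusted p = 3.08e-08). COL11A2, a type XI chain of cartilage, was at 0.721, 1.42 and 1.18 CPM in S2-007, 1.59, 1.51 and 2.08 in S2-020 and 2.26, 2.87 and 2.33 in S2-028 and was called higher in S2-028 than in S2-007 (1.17, SE 0.267, adjusted p = 0.00142). It was also called higher in S2-020 than in S2-007 without S2-007 n2 (adjusted p = 0.0404) and higher in S2-028 than in S2-020 without S2-020 n3 (0.0436).

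COL13A1, a transmembrane collagen of focal adhesions and the neuromuscular junction, was lowest in S2-007. COL13A1 was at 8.95, 5.02 and 5.57 CPM in S2-007, 21.3, 23.2 and 26.01 in S2-020 and 18.3, 22.8 and 25.6 in S2-028. All libraries of S2-020 and S2-028 lay above those of S2-007, and these lines overlapped with each other. COL13A1 was 3.41-fold higher in S2-028 (log2 fold change 1.77, SE 0.170, adjusted p = 2.88e-08) and 3.53-fold higher in S2-020 (1.82, SE 0.157, adjusted p = 8.68e-09) than in S2-007, with -0.08, SE 0.110, adjusted p = 0.632 between S2-028 and S2-020. COL15A1, the relative of COL18A1 in the basement membrane zone, was under 1 CPM throughout (0.240, 0.188 and 0.149 CPM in S2-007, 0.348, 0.397 and 0.0558 in S2-020 and 0.322, 0.595 and 0.721 in S2-028). Its call as higher in S2-028 than in S2-007 (1.49, SE 0.557, adjusted p = 0.0438) was lost without any S2-007 library or without S2-028 n2 or n3, with adjusted p from 0.0572 to 0.196, and in a fit of all 9 libraries (0.0774) and with the replicate block (0.0813).

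The remaining 21 members had no call. COL19A1 (0.948 to 1.67 CPM over the 9 libraries) and COL28A1 (1.27 to 2.50) were the only ones of them with a mean of at least 1 CPM in a line. The others were the fibril-forming COL1A2, COL2A1, COL3A1, COL5A3, COL11A1 and COL24A1, the basement membrane chain COL4A1, the beaded filament chain COL6A5, the short-chain network collagens COL8A1, COL8A2 and COL10A1, the fibril-associated COL9A1, COL14A1, COL20A1, COL21A1 and COL22A1, the transmembrane COL23A1 and COL25A1, and COL26A1. No short-chain network collagen was called in any comparison. The lack of a call does not show that their levels were alike.

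Genes next to a member can move with it, and the 40 nearest tested genes of each called member with a mean of at least 1 CPM were set beside it. Around COL12A1 and COL6A3, the neighbours' median log2 fold change for S2-020 vs S2-007 was 0.12 and -0.19, while the genes themselves were at 6.08 and 6.17. Around COL18A1 it was 0.01 for S2-028 vs S2-007, against 2.83 for COL18A1. The neighbours of COL17A1 were lower in S2-020 than in S2-007, with a median of -0.61, against -3.52 for COL17A1. Of these neighbours, 17 of 40 were called lower, against 12.1% of all genes tested, whose median was -0.05. The neighbours of COL4A5 were higher in S2-028 than in S2-007 with a median of 0.68, against 3.61 for COL4A5. Of these neighbours, 19 of 40 were called higher, against 10.2% of all genes tested, whose median was 0.00. For S2-028 vs S2-020 the neighbours of COL4A5 went the other way from the gene, with a median of 0.59, against -1.60 for COL4A5. Here 18 of 40 were called higher, against 12.1% of all genes tested, whose median was 0.02. For COL6A6 (0.47 against 0.78, S2-028 vs S2-007) and COL1A1 (0.71 against 1.46, S2-028 vs S2-020, and -0.46 against -0.73, S2-020 vs S2-007), the neighbours' medians had the sign of the gene's own value. The genes named here are examples. A shared sign was also found around other members, among them COL5A2 in all comparisons. The opposite sign was found around others, among them COL5A1 and COL27A1 in all comparisons. For S2-028 vs S2-007, S2-020 vs S2-007 and S2-028 vs S2-020, the medians around COL5A2 were only -0.10, -0.15 and 0.03. Around COL5A1 they were -0.05, -0.19 and 0.007, and around COL27A1 -0.11, -0.13 and 0.11. Over all genes tested the medians were 0.00, -0.05 and 0.02, so some of these signs rest on values near those of all genes. The part of the surrounding region in these differences was not tested.

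Collagen chains need enzymes that hydroxylate, fold, export, trim and cross-link them, and of a list of 33 such genes all were tested. In S2-028 against S2-007, 7 were higher (21.2%, against 10.2% of all genes tested) and 8 lower (24.2%, against 8.19%). In S2-020 against S2-007, 6 were higher (18.2%, against 9.57%) and 4 lower (12.1%, the share of all genes tested also being 12.1%). In S2-028 against S2-020, 4 were higher (12.1%, likewise 12.1% of all genes tested) and 11 lower (33.3%, against 10.1%). The median log2 fold changes of the list were -0.09, 0.03 and -0.37 in these comparisons, against 0.00, -0.05 and 0.02 over all genes tested. The count of 8 lower in S2-028 than in S2-007 was 5 without S2-028 n3. Lysyl oxidases cross-link collagen, and LOXL4 and LOXL2 of this family had the lowest and highest log2 fold changes of the list in both comparisons with S2-007. LOXL4 was at 861, 881 and 953 CPM in S2-007, 82.9, 69.2 and 52.5 in S2-020 and 10.9, 14.3 and 8.80 in S2-028, and the lines were separate, with S2-007 highest (79.0-fold over S2-028, log2 fold change -6.30, SE 0.122, adjusted p = 2.38e-19). LOXL2 was at 4.09, 2.43 and 4.70 CPM in S2-007, 141, 149.6 and 164 in S2-020 and 30.6, 30.8 and 29.4 in S2-028, highest in S2-020 (5.31, SE 0.136, adjusted p = 6.22e-17 for S2-020 vs S2-007). LOX was at 1.35, 1.11 and 1.71 CPM in S2-007, 35.2, 37.5 and 41.4 in S2-020 and 3.46, 4.13 and 6.00 in S2-028, also highest in S2-020 (4.74, SE 0.126, adjusted p = 1.14e-16). Of the enzymes that modify the chains, the lysyl hydroxylase PLOD2 was at 34.9, 36.6 and 34.1 CPM in S2-007, 116, 127 and 107 in S2-020 and 57.1, 58.9 and 54.6 in S2-028 and the prolyl 3-hydroxylase P3H2 at 2.91, 5.29 and 6.80 CPM in S2-007, 63.5, 58.6 and 55.7 in S2-020 and 38.1, 32.1 and 33.1 in S2-028, both higher in S2-020 than in S2-007 (1.70 and 3.54). P3H1, another prolyl 3-hydroxylase, was at 51.0, 52.8 and 56.1 CPM in S2-007, 75.4, 73.9 and 75.1 in S2-020 and 25.5, 25.5 and 26.2 in S2-028 and lower in S2-028 than in S2-007 (-1.05, SE 0.0715, adjusted p = 1.37e-10). PCOLCE2, which enhances the trimming of procollagen, was at 8.07, 7.52 and 8.23 CPM in S2-007, 47.0, 44.9 and 41.4 in S2-020 and 8.89, 7.56 and 9.69 in S2-028, with 2.45, SE 0.0822, adjusted p = 3.76e-15 for S2-020 vs S2-007. MIA2, which takes part in the export of procollagen from the endoplasmic reticulum, was at 81.6, 87.9 and 83.9 CPM in S2-007, 35.5, 33.1 and 32.8 in S2-020 and 40.8, 42.3 and 37.0 in S2-028 and highest in S2-007 (-1.07, SE 0.0680, adjusted p = 3.93e-11 for S2-028 vs S2-007). P4HB and SERPINH1, the general chaperones of procollagen, were abundant and had no call, with means of 933, 972 and 752 CPM for P4HB and 301, 312 and 252 for SERPINH1 in S2-007, in S2-020 and in S2-028.

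Of 10 collagen receptors, 1 was higher (10%, near the 10.2% of all genes tested) and none lower (against 8.19%) in S2-028 than in S2-007. In S2-020, 2 were higher (20%, against 9.57%) and 2 lower (20%, against 12.1%) than in S2-007, and in S2-028, 3 were higher (30%, against 12.1%) and 2 lower (20%, against 10.1%) than in S2-020. The median log2 fold changes of these receptors were 0.19, -0.14 and 0.17. ITGA2, the integrin subunit that binds fibrillar collagen on epithelial cells, was at 755, 829.5 and 799 CPM in S2-007, 144, 143 and 127 in S2-020 and 691, 702 and 691 in S2-028. S2-020 lay far below the other lines, at -2.56, SE 0.0583, adjusted p = 1.04e-17 against S2-007. DDR1, the collagen-activated receptor tyrosine kinase of epithelium, was at 319.9, 307 and 315 CPM in S2-007, 97.3, 101 and 90.0 in S2-020 and 413, 412 and 392 in S2-028 and was likewise lower in S2-020 than in S2-007 (-1.74, SE 0.0554, adjusted p = 1.73e-15). ITGA10, a collagen-binding integrin subunit of cartilage, was at 2.11, 2.12 and 1.59 CPM in S2-007, 40.3, 52.9 and 50.1 in S2-020 and 1.69, 2.85 and 1.51 in S2-028 and 24.0-fold higher in S2-020 than in S2-007 (4.59, SE 0.127, adjusted p = 2.09e-16). MRC2, which takes up collagen for degradation, was at 18.4, 18.0 and 19.4 CPM in S2-007, 109.7, 122 and 113 in S2-020 and 31.9, 34.0 and 30.9 in S2-028, higher than in S2-007 in S2-020 (2.60, SE 0.0628, adjusted p = 2.46e-17) and in S2-028 (0.80, SE 0.0824, adjusted p = 8.50e-08). ITGA1, which binds type IV collagen, was at 18.5, 20.2 and 16.1 CPM in S2-007, 13.3, 13.5 and 12.5 in S2-020 and 29.8, 25.6 and 24.2 in S2-028, higher in S2-028 than in S2-020 (1.02, SE 0.0964, adjusted p = 3.97e-08), and also called higher in S2-028 than in S2-007 without S2-007 n2 or S2-028 n3 (log2 fold changes of 0.63 and 0.61 against 0.54). The epithelial markers EPCAM, CDH1, KRT8 and KRT19 were also lower in S2-020 than in S2-007, and the part of this difference in the collagen, enzyme and receptor genes above was not tested.

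**Figure D5:**
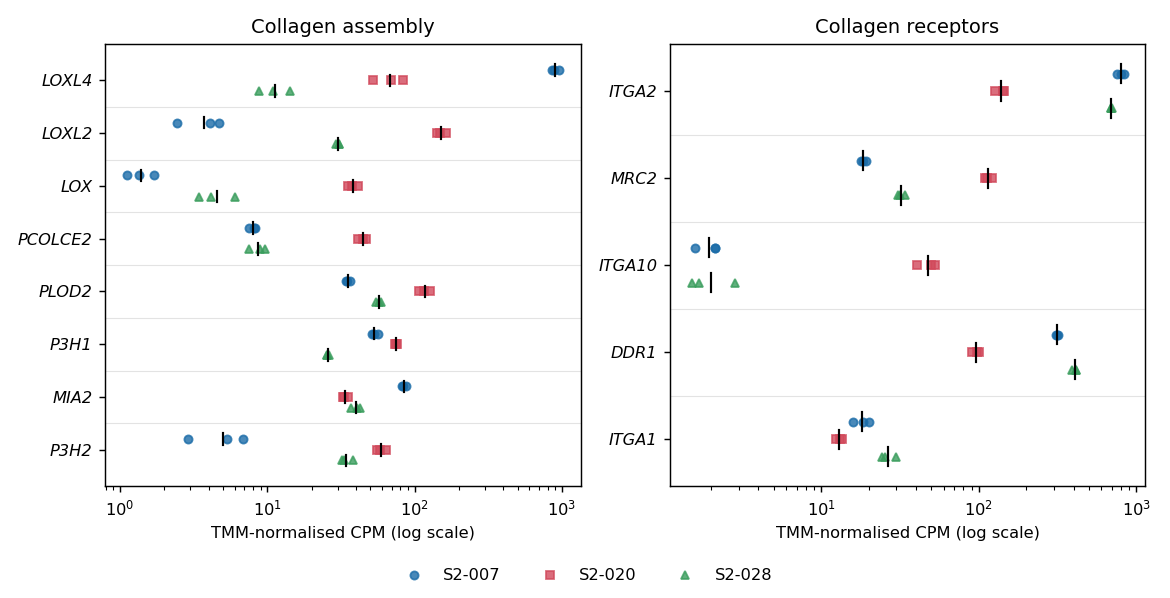
TMM-normalised CPM (log scale) of the collagen assembly genes (left) and collagen receptor genes (right) with the smallest adjusted p-values, with 1 symbol per library and a vertical bar at the mean of each line. LOXL4 runs from about 861 CPM or more in S2-007 to 14.3 CPM or less in S2-028, while LOX, LOXL2, ITGA10 and MRC2 are highest in S2-020.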

How the data were processed

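Per the study's methods, poly(A) RNA was made into strand-specific libraries, sequenced on an Illumina NovaSeq, filtered with Trimmomatic 0.39 and aligned to GRCh38.p14 with BWA 0.7.17. The authors deposited whole-number counts of mapped reads per gene, without normalisation. The authors also deposited 18 columns of normalised signal derived from those counts. Neither these columns nor 2 rows that name no gene were used. The counting tool and its treatment of strand and of reads with several matches are not given in the sources used here. BWA does not split reads across introns, so levels of genes with many short exons, such as collagens, can be understated. Of the values from 1 to 10, 78.7% were even. Counts may therefore not each stand for an independent read, and the reason was not tested.

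The counts were tested with edgeR 4.0.16 under R 4.3.3, using filterByExpr (minimum count 10, minimum total 15), TMM and the quasi-likelihood F-test (glmQLFit, glmQLFTest), with only the 6 libraries of the compared lines in each fit. This fit ran over all genes, with Benjamini-Hochberg adjustment over them. The study's text names a likelihood ratio test, which was an alternative, as were DESeq2 1.42.0, other normalisation, no filter, all 9 libraries in one fit, a replicate block and leaving out each library. No pair of libraries agreed within sampling noise, since chi-square divided by the number of genes was 7.95 or more within a line and 205 or more between lines. CPM use TMM factors of all 9 libraries, so their ratios can differ slightly from fold changes. Exon lengths come from GENCODE v44 and join the exons of all annotated transcripts of a gene. They can therefore exceed the length of the transcript made. Coordinates and promoter windows come from RefSeq. Of all gene identifiers, 42539 (99.6%) were in the RefSeq table. No member shared more than 3.59% of its 31-base words with other genes. The pipeline was tested on simulated counts with 200 changed genes per comparison. It recovered 83.5% of them for S2-028 vs S2-007, 87.5% for S2-020 vs S2-007 and 90.5% for S2-028 vs S2-020, with 0, 7 and 4 false calls. The changed genes were drawn from those above a minimum mean count, so recovery at lower counts was not measured.

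The members and gene lists were chosen with earlier results of these data known. A collagen gene is described with all its values if it was called in any comparison and reached a mean of 1 CPM in a line. COL4A6, COL9A2, COL15A1 and COL4A1 were described as partners or relatives after their values were seen. From the assembly and receptor lists, up to 8 called genes with the smallest adjusted p were named, and P4HB and SERPINH1 were named after their values were seen.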

Additional observations from a re-analysis of the deposited data

How the results depend on the processing

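Each comparison was repeated under 12 alternatives, of which 6 left out 1 library each. Of 69 log2 fold changes of called members, 48 were called, and 42 of these kept call and sign in every alternative. The 6 that lost the call in some were those of COL1A1 (2), COL5A2, COL9A2, COL15A1 and COL16A1. Across the alternatives that left out a library, the number of collagen genes higher in S2-028 than in S2-007 ran from 12 to 14 and lower from 4 to 6, higher in S2-020 than in S2-007 from 10 to 11 and lower from 3 to 7, and higher in S2-028 than in S2-020 from 6 to 8 and lower 7 to 7. The count of 3, against 6, came without S2-020 n2, with fewer libraries in the fit. The sign turned for some uncalled values near 0: COL4A4 for S2-020 vs S2-007 was -8.88e-05 with no filter and -0.16 to 0.24 when 1 library was left out, and leaving out 1 library also gave -0.21 to 0.85 for COL4A2 and -0.28 to 0.23 for ITGA10 (S2-028 vs S2-007) and -0.19 to 0.040 for COL13A1 (S2-028 vs S2-020). The call for COL4A3 in S2-020 vs S2-007 appeared with the likelihood ratio test (adjusted p = 0.0443) and with all 9 libraries in one fit (0.0092). The alternatives for the assembly and receptor genes were chosen after seeing the data, and their 31 called values kept call and sign in all of them. The count of assembly genes lower in S2-028 than in S2-007 was 5 without S2-028 n3, and that of receptors higher there was 2 without S2-007 n2 or S2-028 n3.

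The replicate numbers were used as a block in 1 alternative. The correlation of deviations between same-numbered libraries of different lines ran from -0.0471 to 0.137 over 9 pairs and exceeded 0.1 in 1. Between differently numbered libraries it ran from -0.191 to 0.169, so these values do not tell whether the numbers pair the libraries. With the replicate block, 13 members were higher and 5 lower in S2-028 than in S2-007, 10 higher and 5 lower in S2-020 than in S2-007, and 6 higher and 7 lower in S2-028 than in S2-020. COL1A1 lost its call for S2-020 vs S2-007 (-0.67, adjusted p = 0.0833). As to depth, 22 of 44 members had a mean under 1 CPM in all lines, and the smallest difference detectable at these levels was not measured.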
